A study of Mus musculus with 12 samples.

Results

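Matrix metalloproteinases are zinc-dependent enzymes that cut collagens and other proteins of the extracellular matrix, and tissue inhibitors of metalloproteinases (TIMPs) block them. The account covers 9 genes of this system, chosen by name from the 23358 genes of the authors' count table. They are 6 metalloproteinases (Mmp2, Mmp11, Mmp13, Mmp14, Mmp16 and Mmp23) and 3 inhibitors (Timp1, Timp2 and Timp3). Mmp9, typical of osteoclasts, and Mmp8, typical of neutrophils, were kept out of the set and are described with the rest of the system. RNA was sequenced from 12 samples of mouse frontal bone, dissected on postnatal day 3 together with nasal bone and the frontonasal and coronal sutures. The 4 groups of 3 samples were C57BL/6 wild type, C57BL/6 mutant, BALB/c wild type and BALB/c mutant. Mutants were heterozygous for Fgfr2 C342Y, the allele used to model Crouzon syndrome (early fusion of skull sutures), and wild types carried no such allele. The allele is carried in every cell, so an effect cannot be assigned to 1 cell type. The comparisons ask how the mutation changes expression on each strain background and how the backgrounds differ.

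Most metalloproteinases are made as inactive proenzymes whose prodomain must be cut away. Some are secreted, and others, the membrane type, stay anchored at the cell surface. In bone, osteoblasts and hypertrophic chondrocytes make collagenases that open up type I and type II collagen during growth and remodelling. The inhibitors bind active enzymes 1 to 1, and TIMP2 also takes part in activation: bound to MMP14 at the cell surface, it captures proMMP2 so that a neighbouring MMP14 can cut it. RNA levels do not show how much of a proenzyme was activated.

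The libraries held 27181658 to 46521546 gene counts each, and the 9 genes took up 0.365% to 0.443% of them. Within groups, the lowest correlation between any pair of replicates, over genes on a log2 scale of CPM (counts per 1000000 counts), was 0.958. C57BL/6 mutant replicate 4 and C57BL/6 wild type replicate 1 stood apart in marker genes. The first held 68.6 summed CPM of epithelial markers against 3.40 at the group's lowest. The second had the lowest summed osteoblast markers of all libraries, 62230 CPM. Osteoblast markers summed to 62230 to 142400 CPM over the 12 libraries. Most of each sum was Col1a1, at 58980 to 136700 CPM. Ibsp and Dmp1 had at least 1070 and 870 CPM in every library, so bone cells were present in each as labelled. Each strain has a run identifier of its own in the sample descriptions, so strain and sequencing run cannot be told apart, whereas both genotypes of a strain share a run. BALB/c reads were also aligned to a C57BL/6 genome, an effect that was not tested. Nothing in the labels says that samples came from separate animals, so p-values measure only the spread between these samples, which may in part be technical. In 3 of the 4 groups, 1 sample had high Y-linked counts and the others did not, so those groups were not drawn from 1 animal. All 9 genes passed the filter on low counts. Fgfr2, the mutated gene, had 249 CPM on average in C57BL/6 wild type and 361 in C57BL/6 mutant samples (adjusted p = 0.00405), against 282 and 300 CPM in the BALB/c groups (adjusted p = 0.80). Reads of the 2 alleles were counted together, so these values do not check the genotype.

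Promoter sequences of 4 of the members are shown because 3 of these genes, Mmp13, Timp3 and Timp1, were higher in C57BL/6 mutants, while Mmp14, the surface activator, did not pass the test there. RefSeq (GRCm38.p6) promoters were at hand for 7 of the 9 members and not for Mmp2 and Mmp16. The stretches below run 5′ to 3′ on the gene's own strand and end before the annotated transcript. Capitals mark letters that match 1 of 5 short motifs.
Mmp13, chr9:7272264-7272513, plus strand: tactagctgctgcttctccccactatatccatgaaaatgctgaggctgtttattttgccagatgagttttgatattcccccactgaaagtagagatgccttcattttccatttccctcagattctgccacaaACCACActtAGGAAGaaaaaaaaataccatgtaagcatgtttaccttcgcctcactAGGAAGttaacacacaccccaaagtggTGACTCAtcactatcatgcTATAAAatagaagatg
Mmp14, chr14:54431348-54431597, plus strand: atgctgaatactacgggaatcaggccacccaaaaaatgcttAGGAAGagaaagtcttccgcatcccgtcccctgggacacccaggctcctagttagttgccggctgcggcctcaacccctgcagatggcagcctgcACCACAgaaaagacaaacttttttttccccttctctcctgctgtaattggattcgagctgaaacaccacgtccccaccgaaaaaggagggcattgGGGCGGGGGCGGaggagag
Timp1, chrX:20869916-20870165, plus strand: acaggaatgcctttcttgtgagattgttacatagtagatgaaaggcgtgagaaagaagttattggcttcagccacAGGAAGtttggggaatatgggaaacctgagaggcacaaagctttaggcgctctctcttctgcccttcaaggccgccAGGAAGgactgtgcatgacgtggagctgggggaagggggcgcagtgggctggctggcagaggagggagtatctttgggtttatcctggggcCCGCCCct
Timp3, chr10:86300162-86300371, plus strand: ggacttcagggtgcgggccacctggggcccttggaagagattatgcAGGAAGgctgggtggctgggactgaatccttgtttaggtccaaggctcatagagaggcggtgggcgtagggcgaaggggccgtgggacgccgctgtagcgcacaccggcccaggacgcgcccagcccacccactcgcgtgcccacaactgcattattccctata
The motifs searched were TGANTCA (the AP-1 motif), AGGAAG (the PEA3 motif of ETS factors), TGTGGT (the Runx motif), each on both strands, TATAAA (the TATA box) on the gene's strand and GGGCGG (the GC box) on both strands. Of 27025 promoters, 6.87% held the AP-1 motif, 29.2% the PEA3 motif, 14.2% the Runx motif, 8.12% the TATA box and 32.9% the GC box. The Mmp13 stretch held the AP-1 motif at bases -35 to -29 from the annotated start, the PEA3 motif at -109 and at -62, the Runx motif at -118 on the opposite strand and the TATA box at -16. Mmp13 was the only 1 of the 7 members searched with the AP-1 motif or the TATA box. Mmp14 held the PEA3 motif at -209, the Runx motif at -114 and a pair of adjacent GC boxes at -19 and -13. Timp1 held the PEA3 motif at -175 and -99 and a GC box at -8. Timp3 held the PEA3 motif at -204 and a GC box at -15, which lies outside the printed stretch. GC content was 40.4% over the Mmp13 window and 65.6% over that of Timp3, against a median of 52% for all promoters. Such matches describe letters and do not show that a factor binds.

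To compare levels between genes, CPM was divided by the length in kilobases that the authors' table gives as coding length. The length listed for Timp3, 4681 bases, is longer than its coding sequence, so these lengths may include untranslated exons, and values per kilobase depend on them. Averaged over the 12 samples, Mmp13, the main interstitial collagenase of rodent bone, had the highest level of the 9 at 451 CPM per kilobase. Mmp2, a gelatinase that also degrades type IV collagen, had 280, and Mmp14, a membrane-anchored collagenase that activates proMMP2 and proMMP13, had 275. Their ranges over samples, 229 to 304 for Mmp2 and 197 to 313 for Mmp14, overlapped, so the order of this pair was not resolved. Timp1 followed at 209 and Timp2 at 171 CPM per kilobase, with ranges that also overlapped. Timp3, which binds tightly to the matrix and also inhibits several ADAM and ADAMTS enzymes, had 78.5. Mmp23, a small membrane-linked member without the hemopexin domain, had 39.6. Timp3 lay above Mmp23 in every sample except BALB/c wild type replicate 13 (53.2 against 61.0). The lowest were Mmp16, a membrane-type enzyme that can activate proMMP2, at 11.4, and Mmp11 at 8.37 CPM per kilobase. Mmp11 is activated inside the cell by furin-like convertases. The ranges of Mmp16 and Mmp11 overlapped, but Mmp16 was the higher in every sample.

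**Figure D1:**
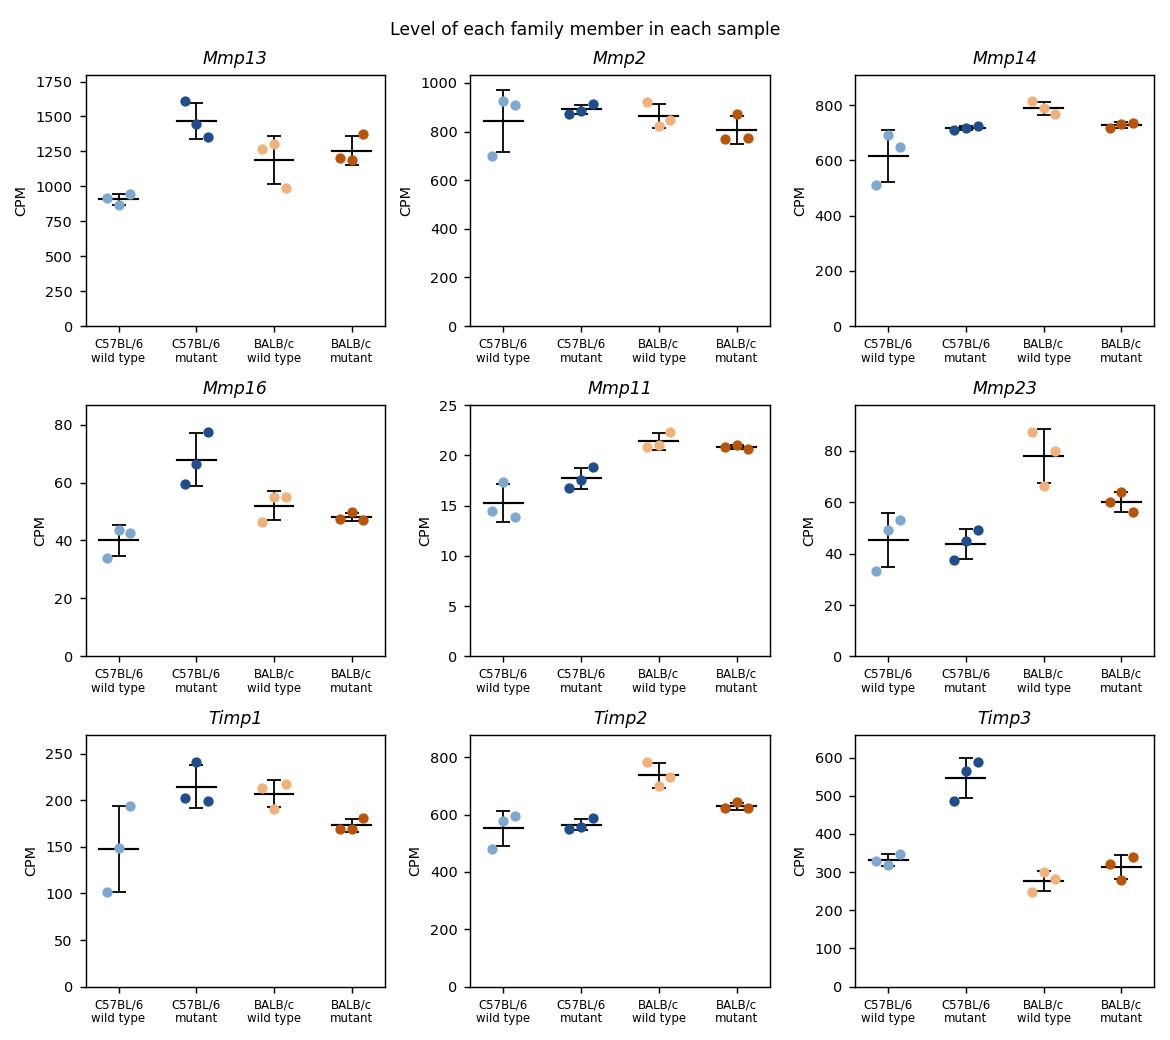
Level of each of the 9 genes in every sample, in CPM (y axes from 0, a scale of its own for each gene), by group (x axes). Points are samples, the long bar is the mean and the error bars are ± 1 SD (n = 3). The 3 C57BL/6 mutant samples lie above all 3 C57BL/6 wild type samples for Mmp13, Mmp16, Timp1 and Timp3, and also for Mmp14.

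On the C57BL/6 background, 4 of the 9 genes rose in mutants: the collagenase Mmp13, the membrane-type enzyme Mmp16 and the inhibitors Timp1 and Timp3. None of the 9 fell. At the same threshold (edgeR quasi-likelihood test, Benjamini-Hochberg adjusted p under 0.05 over 16190 genes), 23.9% of all genes were called, 11.3% as higher and 12.6% as lower. The median log2 fold change of the 9 was 0.22, against -0.0040 over all genes tested.

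Mmp13 had 919, 865 and 942 CPM in the C57BL/6 wild type samples and 1607, 1446 and 1353 CPM in the mutants. The groups did not overlap, and the lowest mutant stood well above the highest wild type. The log2 fold change was 0.69 (SE 0.108, adjusted p = 0.00167), which is 1.62-fold. Mmp13 lies at chr9:7272514-7283333 (mm10, plus strand), and its promoter is the first of those printed.

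Mmp16 had 33.9, 43.6 and 42.5 CPM in wild type and 59.5, 66.5 and 77.5 CPM in mutant C57BL/6 samples. All mutants were above all wild types, at a level far below that of Mmp13. The log2 fold change was 0.76 (SE 0.113, adjusted p = 0.00125). The gene lies at chr4:17853482-18118734 on the plus strand.

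Timp3 had 329, 318 and 348 CPM in wild type and 488, 566 and 589 CPM in mutant C57BL/6 samples. The groups did not overlap, and the spread among wild types was small (332 ± 15.2 CPM, SD, n = 3). The log2 fold change was 0.72 (SE 0.0981, adjusted p = 0.000817), the lowest adjusted p among the 9 in this comparison. Timp3 lies at chr10:86300412-86349505 on the plus strand within Syn3 on the opposite strand, and 1733 exon bases are shared between the annotated genes. The strand setting of the authors' counting is not given in the sources used here, so reads of the shared bases cannot be told apart. Syn3 was listed with 70 to 218 counts per library, which does not bound the reads lost or gained on the shared bases. Of the 50-base words of Timp3 transcripts, 21.4% also occur in other annotated genes on either strand, the highest share of the 9, so part of its counts is uncertain.

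Timp1, a secreted inhibitor that acts weakly on membrane-type enzymes, had 102, 149 and 194 CPM in wild type and 203, 241 and 200 CPM in mutant C57BL/6 samples. The groups did not overlap, but wild type replicate 3 came close to the mutants and replicate 1 was far below. The log2 fold change was 0.54 (SE 0.173, adjusted p = 0.0425), just inside the threshold. The Timp1 call was lost in 10 of the 12 fits that left out 1 library, with adjusted p up to 0.135. It was kept without wild type replicate 3 (log2 fold change 0.78) and without mutant replicate 4, and the fold change fell from 0.54 to 0.35 without wild type replicate 1 (adjusted p = 0.0741). Timp1 lies at chrX:20870166-20874737 on the plus strand inside Syn1, which is on the opposite strand, shares no annotated exon bases with it and had 100 to 230 counts per library. The summed Y-linked genes were high in 3 of 3 C57BL/6 wild type samples and in 1 of 3 samples of each other group, so the sexes were not balanced, and with a Y-linked covariate Timp1 had a log2 fold change of 0.52 and an adjusted p of 0.0969. Its call was also lost with library totals (0.36, adjusted p = 0.0704) and in a fit of only the groups compared (0.53, 0.153).

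The other 5 genes did not pass the test in C57BL/6. Mmp14 had 512, 693 and 648 CPM in wild type and 710, 717 and 726 CPM in mutants, which do not overlap. Its log2 fold change was 0.22 (95% interval 0.02 to 0.42, adjusted p = 0.104), and wild type replicate 1 alone was far below the rest. It passed with DESeq2 (adjusted p = 0.0498) and without wild type replicate 2 (0.31, 0.0376). Its value fell to 0.12 without wild type replicate 1 and lay between 0.018 and 0.23 over the other alternatives. The authors' deposited table gives Mmp14 a log2 fold change of 0.21 with a q-value of 0.0386. For the strain comparison of wild types, the authors' deposited table gives q-values of 0.162 for Mmp13 and 0.0975 for Timp3, which both pass in the edgeR model, and none of the 9 passes in that table between BALB/c genotypes. Mmp11 ranged from 13.8 to 17.4 CPM in wild type and from 16.8 to 18.9 CPM in mutants (log2 fold change 0.22, adjusted p = 0.0809), and passed without wild type replicate 2 (0.33, adjusted p = 0.0123). For Mmp2 the log2 fold change was 0.08 (95% interval -0.14 to 0.30), for Timp2 it was 0.03 (-0.15 to 0.21) and for Mmp23 it was -0.05 (-0.39 to 0.30). Among the genes of proMMP2 activation, Mmp16 rose, and Mmp2, Mmp14 and Timp2 did not pass the test. The Mmp13, Mmp16 and Timp3 calls held in all 12 fits that left out 1 library. Counting ranges alone, 5 of the 9 genes did not overlap between genotypes, all higher in mutants, while 41.6% of all genes did not overlap, 19.7% with the mutants higher and 21.9% with them lower.

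**Figure D2:**
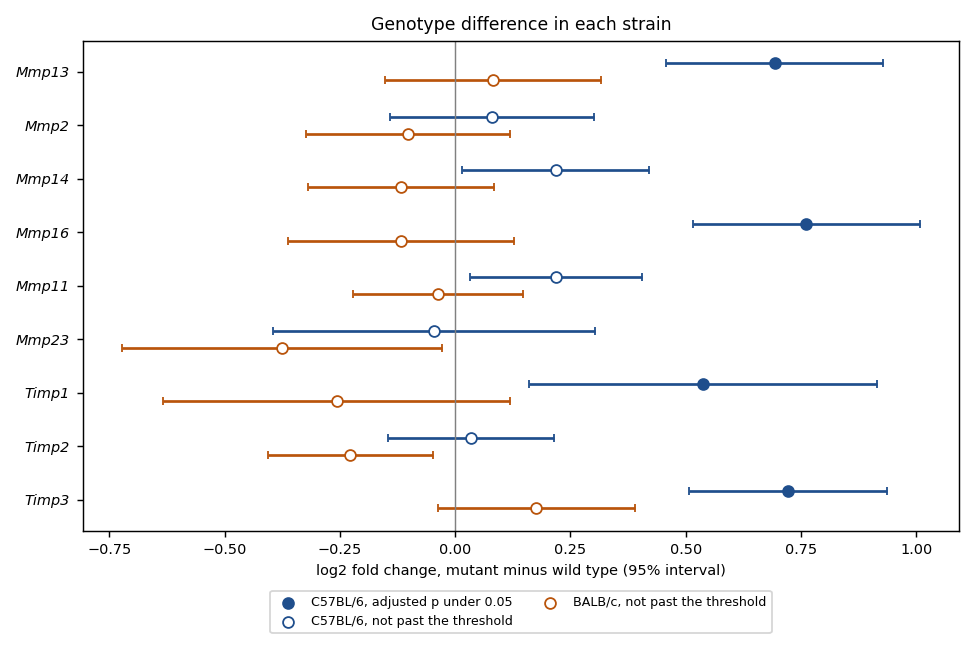
Genotype difference (mutant minus wild type, log2 fold change, x axis) for each gene (y axis) in C57BL/6 (blue) and BALB/c (orange). Points are estimates of edgeR's quasi-likelihood model, bars are 95% intervals, filled points passed the adjusted p threshold. Filled points appear for Mmp13, Mmp16, Timp1 and Timp3, all in C57BL/6 and all to the right of 0.

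Cell type markers moved with the C57BL/6 comparison. All 8 osteoclast markers were called higher in mutants, and their sum was 3492 to 4261 CPM in wild type and 7345 to 8195 CPM in mutant samples. Of 9 osteoblast markers, 7 were called higher. The sums of all 9, 62230 to 109700 against 117500 to 142400 CPM, were mostly Col1a1, which was not called (log2 fold change 0.49, adjusted p = 0.0594). Of 6 macrophage markers, 2 were called higher, Csf1r (203 to 344 CPM on average) and Cd68 (74.2 to 141). Not called were Lyve1 (log2 fold change -0.59), Mrc1 (-0.10), C1qa (0.20) and C1qb (0.11). The sum of the 6 was 295 to 372 CPM in wild types and 504 to 581 CPM in mutants. All 5 erythroid markers were called lower (194 to 266 against 50.4 to 79.5 summed CPM), as were 4 of 8 neutrophil markers (225 to 395 against 116 to 253). Chondrocyte markers moved likewise, with 4 of 8 called lower and sums of 5188 to 7668 against 284 to 2916 CPM. Epithelial markers (4 of 7 lower) summed to 123 to 302 against 3.40 to 68.6 CPM, and Krt5, Krt14 and Krt15 were at 0 in 4 to 7 of the 12 libraries. Ciliated cell markers (4 of 6 lower) summed to 15.7 to 32.1 against 4.07 to 10.5 CPM. Of 7 mesenchyme markers, 3 were called higher and 2 lower, with overlapping sums. Endothelial markers (2 of 5 higher) summed to 325.8 to 390.6 against 403.5 to 490.8 CPM. Of 5 olfactory neuron markers, 1 was called higher and 1 lower. In bulk tissue, fewer cells of a type and less RNA per cell cannot be told apart, and the part of these cells in the results for the 9 genes was not tested. A covariate was also fitted, the mean log2 CPM of the 6 ciliated cell markers, of which Tekt1 and Hydin were at 0 in 7 and 5 libraries. With it, 2 of all 16190 genes were called. None of the 4 calls held (Mmp13 adjusted p = 0.131, Mmp16 0.677, Timp3 0.426, Timp1 0.971). The log2 fold changes were then 0.91 for Mmp13, 0.33 for Mmp16, 0.51 for Timp3 and 0.18 for Timp1, in a fit where genotype accounts for 74.5% of the covariate's variance within C57BL/6. Left out together, the 2 libraries that stood apart did not change the calls: Mmp13, Mmp16, Timp1 and Timp3 were still called, with log2 fold changes of 0.66, 0.77, 0.39 and 0.82.

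**Figure D3:**
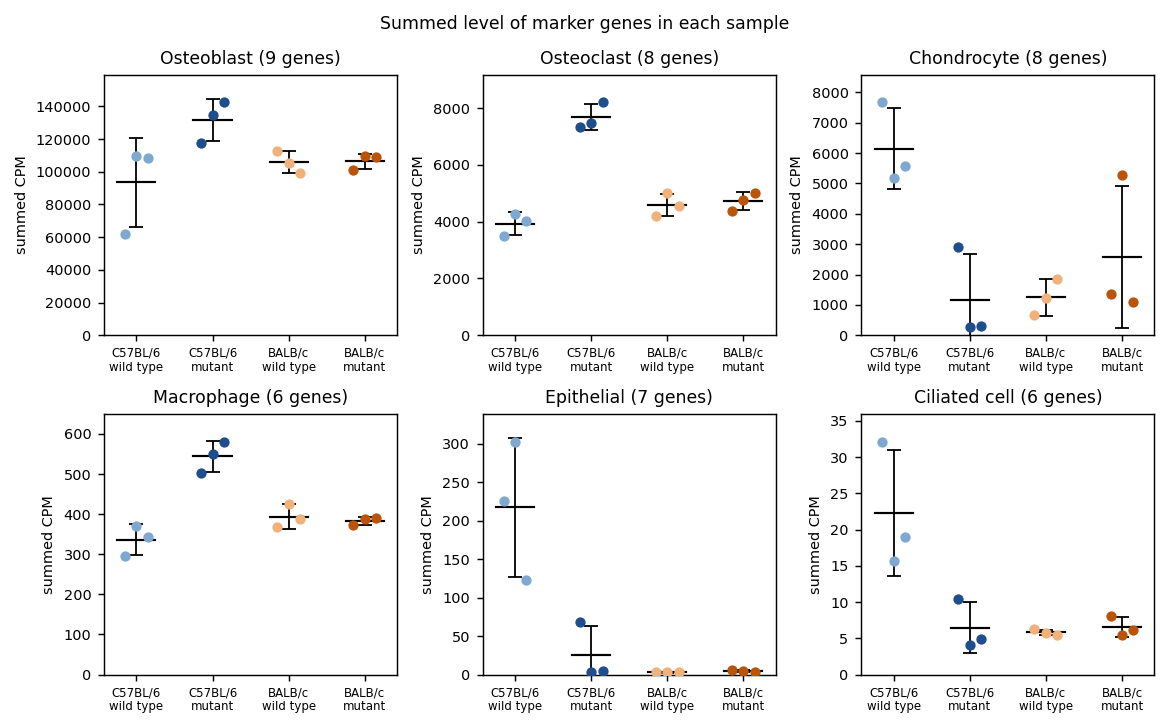
Summed CPM (y axes from 0) of marker genes of 6 cell types in every sample, by group (x axes). Points are samples, the long bar is the mean and the error bars are ± 1 SD (n = 3), drawn only down to 0 where the SD exceeds the mean. Osteoclast sums are 7345 to 8195 CPM in the C57BL/6 mutants and at most 5000 CPM in every other sample, while epithelial sums are highest in C57BL/6 wild types.

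On the BALB/c background, none of the 9 genes passed the test, and only 0.136% of all genes did (0.0926% higher, 0.0432% lower). At an unadjusted p under 0.05 there were 2 of the 9, Timp2 and Mmp23, and 1901 of all 16190 genes. DESeq2 and limma-voom also called none of the 9, and 2.28% and 0.272% of all genes they tested.

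Timp2 had 784, 698 and 729 CPM in BALB/c wild type and 622, 644 and 623 CPM in BALB/c mutant samples. The mutants were all lower, with a log2 difference of -0.23 (95% interval -0.41 to -0.05), but the adjusted p was 0.306. Mmp23 had 87.5, 66.5 and 80.1 CPM in wild type and 60.1, 64.2 and 56.1 CPM in mutant samples, again without overlap. Its log2 difference was -0.38 (95% interval -0.72 to -0.03, adjusted p = 0.382).

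The 4 genes that rose in C57BL/6 mutants did not pass here. Mmp13 had 1269, 1303 and 990 CPM in wild type and 1204, 1192 and 1372 CPM in mutants, with overlapping groups and a log2 difference of 0.08 (95% interval -0.15 to 0.32). Mmp16 had 46.2, 54.9 and 55.1 CPM in wild type and 47.3, 49.7 and 47.0 CPM in mutants (log2 difference -0.12, -0.36 to 0.13). Timp3 had 249, 300 and 283 CPM in wild type and 321, 278 and 340 CPM in mutants (0.18, -0.04 to 0.39). These intervals exclude the C57BL/6 estimates of the same genes. Timp1, by contrast with C57BL/6, had its BALB/c mutants below the wild types, 170, 169 and 181 CPM against 213, 191 and 217 CPM, but the log2 difference of -0.26 did not pass (adjusted p = 0.625). Mmp14 was 766 to 813 CPM in wild types and 716 to 734 CPM in mutants (-0.12, adjusted p = 0.695). Mmp2 and Mmp11 had log2 differences of -0.10 and -0.04 with overlapping groups. In all, 4 of the 9 did not overlap between the BALB/c genotypes, all 4 lower in mutants, while 20.0% of all genes did not overlap, 10% with the mutants lower and 9.93% with them higher. Of the cell type markers only Rhd, an erythroid gene, was called (0.86, adjusted p = 0.0398). Erythroid sums were 212 to 333 CPM in wild types and 419 to 516 in mutants. Neutrophil sums were 559 to 663 and 783 to 858 CPM, and the other cell type sums overlapped. The part of these cells was not tested.

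The difference between the strains' genotype effects was tested directly, as the BALB/c effect minus the C57BL/6 effect. It passed for 3 of the 9 genes, all with the smaller effect in BALB/c, and for 10% of all genes, 4.58% in that direction and 5.46% in the other. Mmp16 differed by -0.88 (SE 0.159, adjusted p = 0.00845), Mmp13 by -0.61 (SE 0.152, adjusted p = 0.0314) and Timp3 by -0.55 (SE 0.138, adjusted p = 0.0332). Timp1 differed by -0.79 (SE 0.244) but its adjusted p was 0.0598. It passed with DESeq2 (adjusted p = 0.0366), with limma-voom (0.0462), without the 2 libraries that stood apart (0.0152) and in 3 of the 12 fits that left out 1 library. The remaining 5 did not pass and ranged from -0.34 for Mmp14 to -0.18 for Mmp2, but Mmp14 passed with DESeq2 (adjusted p = 0.0484) and Mmp11 without C57BL/6 wild type replicate 2 (0.0433). All 9 estimates were negative, with a median of -0.34 against 0.0074 over all genes. Under scaling by library totals that of Mmp2 became 0.04, and with the ciliated covariate those of Mmp2 and Mmp23 became positive and none of the 3 calls held (Mmp16 -0.39, Mmp13 -0.86, Timp3 -0.30). With library totals the Mmp13 and Timp3 calls were lost, at -0.38 and -0.31. The Mmp16 difference passed in all 12 fits without 1 library. That of Mmp13 passed in 5 of the 12 and that of Timp3 in 4, with adjusted p up to 0.0801 and 0.0867. Mmp13 kept its call when the library left out was replicate 1 or 3 (C57BL/6 wild types), 4 (C57BL/6 mutants), 15 (BALB/c wild types) or 18 (BALB/c mutants). For Timp3 these were replicates 3, 4, 13 and 18 of the same groups. Osteoclast markers moved with these results, with 7 of 8 called lower in the same contrast, as did osteoblast markers, with 4 of 9 called lower and all 9 estimates between -0.78 and -0.42. Erythroid (5 of 5), muscle (4 of 6) and neutrophil markers (3 of 8) were called higher. The part of these cells was not tested.

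Among wild types, most of the family was higher in BALB/c. Of the 9 genes, 7 were higher and 1, Timp3, was lower in BALB/c than in C57BL/6, on a background of 48.5% of all genes called, 22.8% higher and 25.6% lower. The median log2 difference of the 9 was 0.39, against -0.0013 for all genes.

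Mmp23 differed most, with 33.3, 49.4 and 53.0 CPM in C57BL/6 and 87.5, 66.5 and 80.1 CPM in BALB/c wild types. No sample overlapped, and the log2 difference was 0.79 (SE 0.160, adjusted p = 0.00201). Timp2 had 480, 579 and 595 CPM in C57BL/6 and 784, 698 and 729 CPM in BALB/c. This was a log2 difference of 0.42 (adjusted p = 0.00161), again without overlap. Mmp11 had 14.5, 17.4 and 13.8 CPM in C57BL/6 and 20.9, 21.0 and 22.4 CPM in BALB/c, a log2 difference of 0.49 with the lowest adjusted p of the 9, 0.000777. Mmp11 lies at chr10:75923224-75932463 on the minus strand, and 3.72% of its 50-base words also occur in Chchd10, so a small part of its counts is uncertain.

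The collagenases were higher as well, Mmp14 by 0.36 on the log2 scale (adjusted p = 0.00807) and Mmp13 by 0.39 (adjusted p = 0.0113). Mmp16 was higher by 0.38 (adjusted p = 0.0152) and Timp1 by 0.48 (adjusted p = 0.0361), but the Timp1 samples of the strains overlapped, and without C57BL/6 wild type replicate 1 its difference was 0.28. Of the 12 fits that left out 1 library, the Timp1 call was lost in 4 (C57BL/6 wild type replicates 1 and 2, BALB/c wild type replicates 13 and 15). The Mmp16 call was lost in 3 (C57BL/6 wild type replicate 1, BALB/c wild type replicates 14 and 15) and the Mmp13 call in 2 (BALB/c wild type replicates 13 and 14). Timp3 was lower in BALB/c, with log2 difference -0.26 (adjusted p = 0.0443), and this call was lost in 7 of those 12 fits (adjusted p up to 0.166), kept without BALB/c wild type replicate 14, C57BL/6 mutant replicate 4 or 6, or BALB/c mutant replicate 17 or 18. Mmp2 did not differ beyond its spread, at 843 ± 126 CPM in C57BL/6 and 865 ± 50.7 CPM in BALB/c (SD, n = 3; adjusted p = 0.789). Between wild types, 7 of the 9 genes did not overlap, 6 higher and 1 lower in BALB/c, against 57.5% of all genes (27.3% higher, 30.1% lower). Epithelial markers (7 of 7 lower in BALB/c, sums of 2.66 to 3.38 CPM against 123 to 302), ciliated cell markers (6 of 6 lower, 5.45 to 6.24 against 15.7 to 32.1), chondrocyte markers (4 of 8 lower) and olfactory neuron markers (5 of 5 lower) moved with this comparison. Mesenchyme markers (4 of 7 higher, 1 lower, sums of 14050 to 16190 against 8736 to 13280 CPM) and neutrophil markers (4 of 8 higher, 559 to 663 against 225 to 395) had higher sums in BALB/c, and 3 of 5 erythroid markers were called higher. The part of these cells was not tested. All 3 C57BL/6 but 1 of 3 BALB/c wild types had high Y-linked counts. With the Y-linked covariate the calls of Mmp13 (0.23, adjusted p = 0.0793), Timp1 (0.47, 0.0901) and Timp3 (-0.20, 0.173) were lost, and with library totals that of Mmp13 (0.27, 0.0803). Fitting only the groups compared lost Timp1 (adjusted p = 0.0615) and Timp3 (0.0517), omitting the filter lost Timp3 (0.0554), and leaving out the 2 libraries that stood apart lost Timp1 (0.0615). With the ciliated covariate, 8.87% of all genes were called and none of the 8 calls held. The log2 differences were then larger for Mmp13 (0.63) and Timp3 (-0.49), -0.09 for Mmp16, and between 0.085 and 0.26 for the other 5, with adjusted p of 0.0902 to 0.912 over the 8.

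Between mutants the picture was mixed. Mmp11 and Mmp23 were higher in BALB/c and Mmp16 and Timp3 were lower, while 36.9% of all genes were called, 18% higher and 18.9% lower. The median log2 difference of the 9 was -0.15, against -0.0041 for all genes. Timp3 showed the largest difference, 488, 566 and 589 CPM in C57BL/6 mutants against 321, 278 and 340 CPM in BALB/c mutants. The log2 difference was -0.81 (adjusted p = 8.15e-05), and no sample overlapped. Mmp16 was lower in BALB/c mutants by -0.50 on the log2 scale (adjusted p = 0.00458), the opposite of its wild type difference of 0.38. Both of these calls held in all 12 fits that left out 1 library and under every other alternative tried. Mmp23 was higher by 0.46 (adjusted p = 0.0412) and Mmp11 by 0.24 (adjusted p = 0.0453), calls that were lost in 6 and 7 of the 12 such fits, among them those without C57BL/6 mutant replicate 4 or 5 and without each of the 3 BALB/c mutants. The Mmp11 call was also lost with DESeq2 (adjusted p = 0.0637), with RLE size factors (0.0546), without the filter (0.0537) and without the 2 libraries that stood apart (0.18 on the log2 scale, 0.151), while Mmp23 kept its call in these fits. The remaining 5 genes lay between -0.31 for Timp1 and 0.16 for Timp2 and did not pass. Some passed under alternatives: Timp1 with only the groups compared (adjusted p = 0.0189), without C57BL/6 wild type replicate 1 (0.0291) and without the 2 libraries that stood apart (0.0203), Mmp13 with the Y-linked covariate (0.041), and Timp2 with library totals (0.28, 0.0026) and with only the groups compared (0.0267). The authors' deposited table gives Timp2 a q-value of 0.0282 and Mmp11 a q-value of 0.0309 between the mutants. In this comparison 7 of the 9 genes did not overlap, 3 higher and 4 lower in BALB/c, against 50.2% of all genes (25.4% higher, 24.8% lower). Marker genes moved with the comparison between mutants. Of 8 osteoclast markers, 7 were lower in BALB/c (4371 to 5000 against 7345 to 8195 summed CPM), as were 5 of 9 osteoblast markers, with 2 higher. All 8 neutrophil markers (783 to 858 against 116 to 253 summed CPM) and all 5 erythroid markers (419 to 516 against 50.4 to 79.5) were higher in BALB/c. All 6 muscle markers were also called higher, with sums of 386, 22.9 and 2.31 CPM in the BALB/c mutants against 1.80 to 3.83. Olfactory neuron markers (4 of 5 lower in BALB/c) summed to 79.3 to 89.4 against 130 to 191 CPM. Macrophage markers (3 of 6 lower, 1 higher) summed to 372 to 390 against 504 to 581 CPM, and 2 of 7 epithelial markers were lower. The part of these cells in the differences of the 9 genes was not tested. These comparisons share samples with the genotype comparisons, so the values of a gene across them are not independent.

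**Figure D4:**
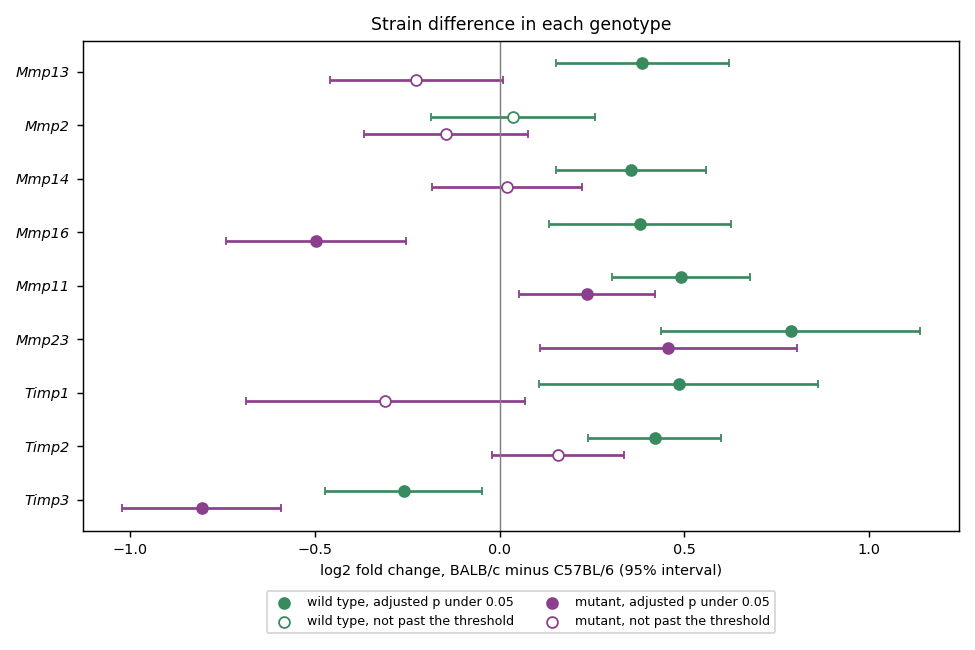
Strain difference (BALB/c minus C57BL/6, log2 fold change, x axis) for each gene (y axis) in wild types (green) and mutants (purple). Points are estimates of edgeR's quasi-likelihood model, bars are 95% intervals, filled points passed the adjusted p threshold. Mmp16 lies at 0.38 in wild types and at -0.50 in mutants, while Timp3 lies to the left of 0 in both.

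The composition of the family was described by summing CPM per kilobase of coding length, without a test. The 6 metalloproteinases summed to 902 ± 81.9 in C57BL/6 wild type, 1172 ± 32.6 in C57BL/6 mutant, 1108 ± 77.0 in BALB/c wild type and 1076 ± 33.7 in BALB/c mutant samples (mean ± SD, n = 3). The 3 inhibitors summed to 389 ± 69.7, 514 ± 30.8, 495 ± 21.0 and 435 ± 11.6 in the same order. Both sums were lowest in C57BL/6 wild types on average. Their ratio was 2.34 ± 0.233, 2.29 ± 0.188, 2.24 ± 0.195 and 2.47 ± 0.0575 in the same order. The ratio of BALB/c mutants, 2.42 to 2.53, lay above that of BALB/c wild types, 2.02 to 2.40, and every other pair of groups overlapped. Within the metalloproteinases, Mmp13 made up 37.9% of the sum in C57BL/6 wild type and 46.8% in C57BL/6 mutant samples, against 40.0% and 43.6% in the respective BALB/c groups. Within the inhibitors, Timp3 relative to Timp2 was 0.470 ± 0.0546 and 0.749 ± 0.0552 in C57BL/6 wild type and mutant samples, and 0.293 ± 0.0435 and 0.385 ± 0.0455 in BALB/c (SD, n = 3). The Mmp13 share of C57BL/6 mutants (44.2% to 49.7%) overlapped that of BALB/c mutants (41.3% to 46.3%), so their order was not resolved. The Timp3 to Timp2 ratio of C57BL/6 mutants, 0.686 to 0.786, lay above that of every other sample. These sums weigh genes by RNA level only and say nothing of enzyme activity.

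**Figure D5:**
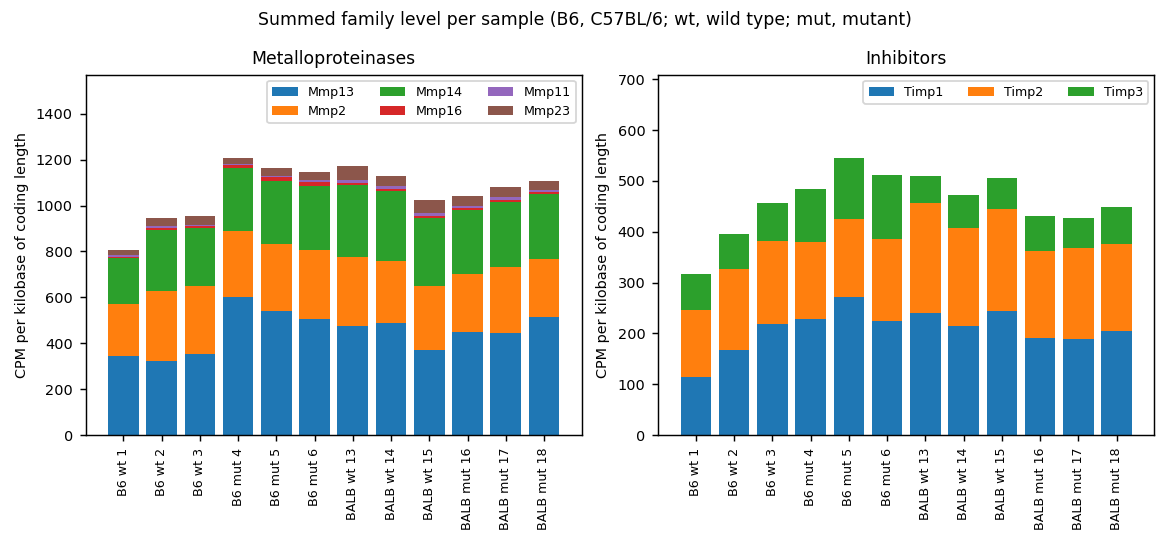
Summed level of the 6 metalloproteinases (left) and the 3 inhibitors (right) in each sample (x axes, group and replicate number), in CPM per kilobase of coding length (y axes from 0). Stacked colours are the genes. Mmp13 takes the largest share of the left bars, and C57BL/6 wild type replicate 1 has the lowest total in both panels, 807 and 317.

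The rest of the system was described from lists of genes. Of all genes, 23.9% were called for genotype in C57BL/6 and 0.136% in BALB/c. For strain these shares were 48.5% in wild types and 36.9% in mutants, and 10% for the strains' difference. Whether a list departs from these shares was not tested. Of 18 other metalloproteinase and TIMP genes, 10 passed the filter on low counts. In C57BL/6, 2 were higher in mutants and 1 was lower (median log2 fold change of the 10, -0.0033). Mmp9, the gelatinase of osteoclasts, had 1490 ± 136 CPM in wild types and 2907 ± 160 CPM in mutants (SD, n = 3; log2 fold change 0.96, adjusted p = 0.000207). It moved with the 7 other osteoclast markers named above as a group. Mmp19 was higher by 0.59 (adjusted p = 0.0311) and the membrane-type Mmp15 was lower, with a log2 fold change of -0.55 (adjusted p = 0.0467). In the test of the strains' difference, only Mmp9 passed among these 10 (-0.87, adjusted p = 0.00484). Between wild types, Mmp3, Mmp28 and Mmp17 were higher in BALB/c (1.67, 0.75 and 0.63 on the log2 scale) and Mmp24 was lower (-3.36). Mmp3 and Mmp24 were at 1.13 CPM or less on average in every group. Between mutants, Mmp8 and Mmp28 were higher in BALB/c (0.94 and 0.40) and Mmp24 and Mmp9 were lower (-3.95 and -0.98). Timp4, the fourth inhibitor, had at most 0.283 CPM on average in any group.

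Of 11 activators and regulators of the family, 3 were higher and 0 lower in C57BL/6 mutants (median log2 fold change 0.15), and none passed in BALB/c. Serpine2, an inhibitor of thrombin and plasminogen activators, rose by 0.89 (adjusted p = 0.000338). Pcsk5 and Furin, proprotein convertases that cut prodomains inside the cell, rose by 0.41 and 0.27 (adjusted p = 0.00593 and 0.0122). Serpine2 and Pcsk5 also passed the test of the strains' difference (-0.80 and -0.49). Reck, a membrane-anchored inhibitor of metalloproteinases, had 75.1 to 83.7 CPM on average in the 4 groups and passed no test. Between wild types, Pcsk5, Plau and Bsg led the 4 that were higher in BALB/c (0.75, 0.53 and 0.43) and Plat, a plasminogen activator, was lower (-0.59). Between mutants, 2 of the 11 were higher and 4 lower in BALB/c, with Serpine2 at -0.55.

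Of 19 related ADAM and ADAMTS genes, targets of TIMP3 among them, 7 were higher and 1 lower in C57BL/6 mutants (median 0.20). The largest were Adam12 (0.68), Adamts12 (0.62) and Adamts9 (0.53), and Adam8 was the lower 1 (-0.45). None passed in BALB/c, and Adamts10 and Adam10 passed the test of the strains' difference (-0.49 and -0.34). Between wild types 5 were higher and 7 lower in BALB/c, with Adamts12 at -1.51. Between mutants 3 were higher and 9 lower, with Adamts12 at -1.85 and Adam12 at -1.05.

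Of 14 matrix substrates, 3 were higher and 3 lower in C57BL/6 mutants (median 0.04). Dcn, Col1a2 and Sparc, matrix genes of osteoblasts and fibroblasts, rose by 0.58, 0.54 and 0.47. The genes that fell belong to cartilage: Col10a1 (-3.23), the collagen of hypertrophic cartilage, Acan (-1.88), the large proteoglycan, and Col11a1 (-0.61). Col10a1 had 342 ± 53.7 CPM in C57BL/6 wild types, 36.4 ± 48.5 in C57BL/6 mutants and 8.08 ± 1.34 in BALB/c wild types (SD, n = 3). Mmp13, which hypertrophic chondrocytes also make, was higher in both of these comparisons while Col10a1 was lower. Summed Col10a1, Ihh and Pth1r were 396.5 CPM in C57BL/6 mutant replicate 4, against 310.2 and 306.7 in the other C57BL/6 mutants. Ihh and Pth1r varied little among these mutants (SD 0.848 and 1.69 CPM). Replicate 4, a library that stood apart, thus carried most of the Col10a1 mean of that group. None of the 14 passed in BALB/c or in the test of the strains' difference. Between wild types 4 were higher and 3 lower in BALB/c, with Dcn at 0.56 and Col10a1 at -5.40. Between mutants Col10a1 was the only 1 called (-2.27), with the C57BL/6 mutant mean raised by replicate 4.

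Genes with the most similar profile to each member were found by Pearson correlation of log2 CPM over the 12 samples, among genes of at least 1 CPM on average. The samples share 4 groups and their libraries, so these values are descriptive. Mmp23 and Timp2 were each other's nearest gene (r = 0.977), with Leprel2 next for both (r = 0.974). Timp3 was closest to Lrp4 (0.977), Zeb2 (0.974) and Oscar (0.972), an osteoclast receptor. Mmp16 was closest to Lrp5 (0.975), a Wnt coreceptor, Pard6g (0.971) and Ctsb (0.964). Mmp14 was closest to Cops7a (0.971), Cpz (0.969) and Slc39a7 (0.962). Timp1 was closest to Ifitm5 (0.972), an osteoblast gene, Nme2 (0.971) and Clptm1l (0.964). Mmp11 was closest to Slc38a6 (0.968), Efhd2 (0.960) and Grin2d (0.958). Mmp13 and Mmp2 had looser neighbours, with Ccr3 (0.903), Tbc1d12 (0.900) and Neu1 (0.897) for Mmp13 and Gorab (0.901), Igdcc4 (0.889) and Ergic1 (0.876) for Mmp2. No other pair of members appeared among these nearest genes.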

How the data were processed

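RNA sequencing libraries of 12 samples in 4 groups were analysed from the gene counts deposited by the authors, whole numbers per gene that are all even. Why they are all even was not tested. Depth and the count filter are stated on these counts as given, so they may not equal numbers of fragments. The authors' deposited RPKM values were not used, and their length column was used only for values per kilobase. The submitters' processing notes name bcl2fastq, TopHat2 2.0.6, HTSeq, DESeq2 and the build mm10. Strand setting and annotation are not given in the sources used here. The authors' deposited DESeq2 table holds p-values, q-values and log2 fold changes, from which values of some members are quoted. Of the value columns, 0 belonged to no sample.

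Counts were tested with edgeR 4.0.16 in R 4.3.3: filterByExpr (minimum count 10, total 15), TMM scaling, 1 quasi-likelihood model with 4 group means, 5 contrasts and Benjamini-Hochberg adjustment over 16190 genes. Standard errors are those implied by the F statistic. CPM uses TMM-adjusted library sizes, and log2 CPM a prior count of 2. The procedure was tested on simulated data. Depth was 27181658 to 46521546 counts.

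All 9 members are named, with Fgfr2. Listed genes past the threshold are named up to 3 per direction, list and comparison, as are the 3 most correlated genes per member. Members and lists were chosen with earlier results of these data known, and 1 gene was taken off the list of activators and is not reported here. Alternatives were DESeq2 1.42.0, limma-voom (limma 3.58.1), other scalings, no filter, Y-linked and ciliated covariates, only the groups compared, and leaving out each sample.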

Additional observations from a re-analysis of the deposited data

Results flagged for a closer look

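Mmp13, Mmp16 and Timp3 stood out because the genotype effect in BALB/c differed from that in C57BL/6 by a direct test of the difference (edgeR's quasi-likelihood test, adjusted p under 0.05). The value is the BALB/c effect minus the C57BL/6 effect on the log2 scale. It was -0.88 for Mmp16, from an effect of 0.76 in C57BL/6 and -0.12 in BALB/c. It was -0.61 for Mmp13, from 0.69 and 0.08. It was -0.55 for Timp3, from 0.72 and 0.18. In each case the 3 C57BL/6 mutants were above the 3 C57BL/6 wild types, while the BALB/c groups overlapped. The Mmp16 difference passed in all 12 fits that left out 1 library, that of Mmp13 in 5 and that of Timp3 in 4. With scaling by library totals, Mmp13 and Timp3 had adjusted p of 0.134 and 0.143 and did not pass. With the ciliated covariate, where 0.0741% of all genes were called, none of the 3 passed, at -0.39 for Mmp16 (adjusted p = 0.753), -0.86 for Mmp13 (0.302) and -0.30 for Timp3 (0.84).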

How the results depend on the processing

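Calls per comparison varied with the processing. Of the 9 genes, leaving out 1 library gave 3 to 5 calls for genotype in C57BL/6 (4 with all libraries), 0 for genotype in BALB/c, 5 to 8 for strain in wild types (8), 2 to 4 for strain in mutants (4) and 1 to 4 for the strains' difference (3). The share of all genes called in those fits was 10.5% to 29.3%, 0 to 0.574%, 39.7% to 49%, 27.3% to 38.7% and 3.78% to 19% in the same order. The number for the strains' difference became 5 with DESeq2, 1 with library totals and 0 with the ciliated covariate, while 16.3%, 11.4% and 0.0741% of all genes tested were called in those fits. Strain in wild types gave 5 with the Y-linked covariate (42.9% of all genes) and 0 with the ciliated one (8.87%), and genotype in C57BL/6 gave 0 with the ciliated one (0.0124%). The cause was not tested, but genotype accounts for 74.5% of the ciliated covariate's variance within C57BL/6 (47.1% for the Y-linked one).

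Scaling by library totals moved the median of all genes to -0.20 for genotype in C57BL/6 and to 0.24 for the strains' difference, and the share of higher genes among those called in C57BL/6 from 47.5% to 13.2%. For the strains' difference this share went from 54.4% to 90.5%, for strain from 47.1% to 31.2% in wild types and from 48.8% to 67.8% in mutants. Under it, Mmp2 and Timp2 turned to -0.11 and -0.15 (C57BL/6 genotype), and Mmp2 to -0.067 (wild type strain) and 0.037 (strains' difference). Mmp13 and Timp3 kept their sign in the strains' difference but were not called (adjusted p = 0.134 and 0.143).

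With the ciliated covariate, Mmp2 and Timp2 turned to -0.15 and -0.14 (C57BL/6 genotype), Mmp2 and Mmp16 to -0.22 and -0.090 (wild type strain), and Mmp2 and Mmp23 to 0.079 and 0.31 (strains' difference). With the Y-linked covariate, Mmp23 turned to 0.011 (C57BL/6 genotype). With the 2 libraries that stood apart left out, an alternative chosen after seeing the data, values near 0 changed sign: Mmp2 -0.00056 and Timp2 -0.012 (C57BL/6 genotype), Mmp2 -0.079 (wild type strain) and Mmp14 -0.0070 (mutant strain). Without 1 library, values spanned -0.018 to 0.15 for Mmp2, -0.034 to 0.092 for Timp2 and -0.20 to 0.085 for Mmp23 (C57BL/6 genotype), -0.079 to 0.11 for Mmp2 (wild type strain) and -0.033 to 0.16 for Mmp13 (BALB/c genotype). With all libraries, Mmp16 (wild type strain) was the only 1 of these that was called. No paired analysis was possible because the groups share no replicate numbers. Depth was 27181658 counts or more per library, and whether depth or the number of samples limited the calls was not tested.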
